A study of Mus musculus with 8 samples.

Results

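The replication-dependent histone genes of the mouse encode the linker histone H1 and the core histones H2A, H2B, H3 and H4. They were taken here as every gene whose symbol begins with Hist1h, Hist2h, Hist3h or Hist4. The rule found 70 genes, 3 of which are annotated as pseudogenes and were left out, which gave 67 members of the 54532 genes in the table. They comprised 6 H1, 18 H2A, 18 H2B, 12 H3 and 13 H4 genes. RNA had been sequenced in bulk from wild-type mouse embryonic fibroblasts, connective tissue cells grown from the embryo, that had spent 4 days in 1 of 4 media. Each medium had 2 libraries, and there were 8 in all. The first 3 groups received a base cocktail called CFAE, which held CHIR99021 (an inhibitor of GSK-3), Forskolin (which raises cyclic AMP), AM580 (a retinoic acid receptor agonist) and the compound labelled EPZ04777 (a DOT1L inhibitor). The CFAE+8 group also received A-83-01, the CFAE+8+MSC group A-83-01 and MSC2530818, and the CFAE+6 group E-616452. A-83-01 and E-616452 block the TGF-beta type I receptor, and MSC2530818 blocks the kinases CDK8 and CDK19. The control group (MEF) was kept in fibroblast medium without the cocktail. The labels give no dose. They also do not say that the 2 libraries of a medium were separate cultures, and p-values here measure only the spread between libraries, which may be technical.

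Cells make most of these histones only while they copy their DNA, when new chromatin has to be packaged, and the genes are switched on together by NPAT at nuclear sites called histone locus bodies. Their mRNAs usually end without a poly(A) tail. Instead the transcript is cut a few bases after a conserved stem-loop, which the protein SLBP binds and which the U7 snRNP helps to cut, and the mRNA is degraded soon after DNA synthesis stops. Some of the genes also give longer transcripts that run past the stem-loop and carry a poly(A) tail. The sources used here do not say whether the libraries were selected for poly(A) tails.

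The stem-loop, which marks this gene family at the RNA level, was looked for by its letters in the sense strand of annotated transcripts (GENCODE M21, build GRCm38), and the forms found share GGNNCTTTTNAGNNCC, where N varies. It was present in a transcript of 44 of the 67 members (65.7%), against 89 of 55450 genes (0.161%) in the whole annotation. The most frequent form, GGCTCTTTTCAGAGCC, was found in 26 members. The stem-loops of 5 members on which the results below turn are printed with 5 bases on either side, the stem-loop in capitals, 5′ to 3′.
Hist1h1c: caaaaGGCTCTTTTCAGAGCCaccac
Hist1h4i: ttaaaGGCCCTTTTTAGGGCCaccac
Hist1h3b: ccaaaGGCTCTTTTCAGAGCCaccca
Hist1h4n: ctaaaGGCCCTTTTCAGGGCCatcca
Hist3h2ba: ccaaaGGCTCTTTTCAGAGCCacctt
All 5 share the CTTTT run and, after 1 variable base, AG, and the 2 H4 genes carry GGCCC where the others carry GGCTC. The annotated transcripts differ more in what follows. In Hist1h1c 840 annotated bases lie after the stem-loop, in Hist1h4i 330 and in Hist3h2ba 169, while Hist1h3b has 51 and Hist1h4n 31. Over all members, 22 had 100 or more bases after the stem-loop, 22 had fewer, and 23 had no match in any annotated transcript. A missing match says only that these letters are not in the annotated transcript.

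**Figure D1:**
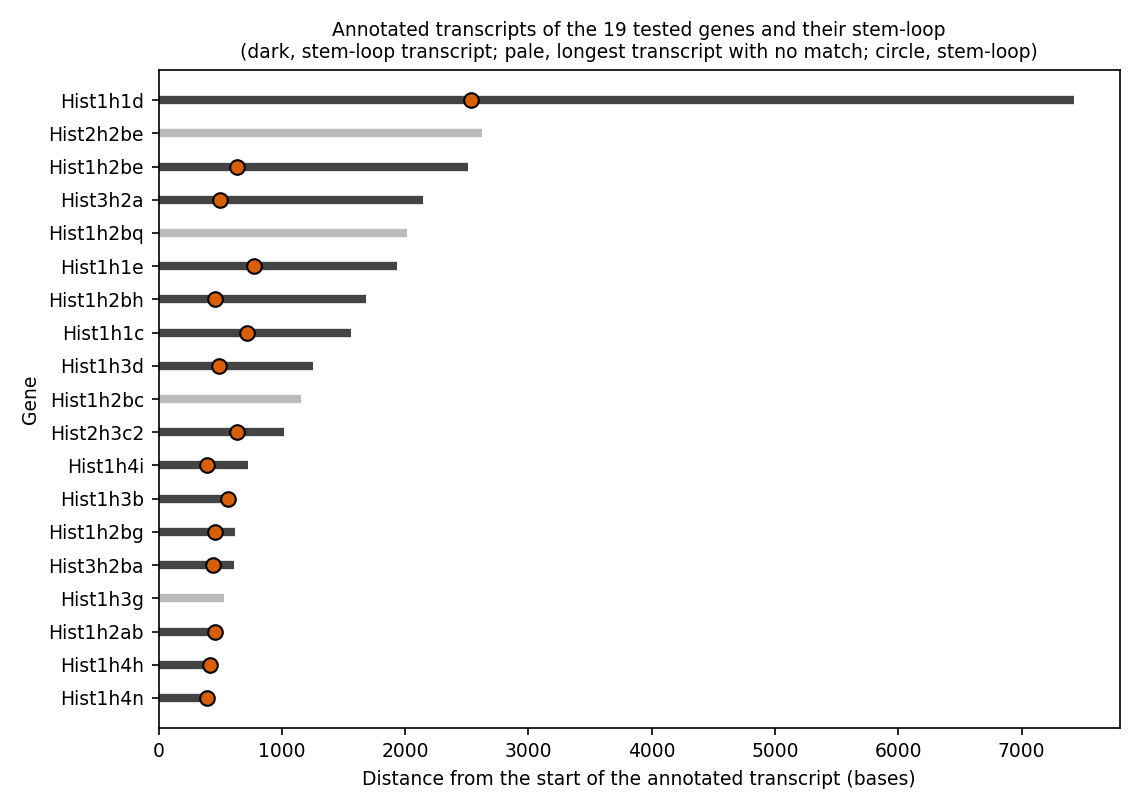
Annotated transcripts of the 19 members tested below, as distance in bases from the transcript start. Dark bars are transcripts with a stem-loop (circle) and pale bars are the longest transcripts of members with no match. In Hist1h1d, 4884 bases follow the stem-loop, while in Hist1h2ab only 11 do.

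Promoter windows of 250 bases before to 50 after the start (RefSeq, GRCm38.p6) were matched for 62 members. These are shown because most of the tested members moved in 1 direction. A CCAAT box, counted on both strands, was found in 54 of 63 member promoters (85.7%), against 37.4% of all 32851 promoters. A TATAAA match was found in 35 (55.6%), against 13.6%. The octamer ATTTGCAT was found in 14 (22.2%, 7 of 18 H2A and 7 of 17 H2B promoters), against 1.74% of all. Some H2A and H2B genes, such as Hist1h2ae and Hist1h2bg, lie back to back with windows over the same spacer. The same match can then count for both genes, for every motif here, so these promoters are not all independent. AAACACA, the H1 box, was found in 5 of 6 H1 promoters, in 14.3% of member promoters and in 7.18% of all. The motifs do not contain one another. H4 promoters stood apart from the other classes in the CCAAT box, which only 3 of 12 held. In the following 3 windows every such match, on either strand, is in capitals.
Hist1h1c, chr13:23738557-23738856, plus strand: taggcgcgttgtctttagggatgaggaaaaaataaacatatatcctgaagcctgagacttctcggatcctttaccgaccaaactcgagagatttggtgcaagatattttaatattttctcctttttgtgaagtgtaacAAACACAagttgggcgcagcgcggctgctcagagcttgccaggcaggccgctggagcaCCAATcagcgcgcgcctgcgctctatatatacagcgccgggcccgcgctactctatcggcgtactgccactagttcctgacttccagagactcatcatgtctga
Hist1h2ac, chr13:23683910-23684209, minus strand: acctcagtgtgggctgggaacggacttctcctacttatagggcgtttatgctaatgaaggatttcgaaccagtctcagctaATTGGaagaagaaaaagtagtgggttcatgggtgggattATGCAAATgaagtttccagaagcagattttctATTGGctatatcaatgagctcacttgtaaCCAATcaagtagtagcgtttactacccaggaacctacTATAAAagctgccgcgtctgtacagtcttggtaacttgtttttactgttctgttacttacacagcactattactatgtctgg
Hist3h2ba, chr11:58948661-58948960, plus strand: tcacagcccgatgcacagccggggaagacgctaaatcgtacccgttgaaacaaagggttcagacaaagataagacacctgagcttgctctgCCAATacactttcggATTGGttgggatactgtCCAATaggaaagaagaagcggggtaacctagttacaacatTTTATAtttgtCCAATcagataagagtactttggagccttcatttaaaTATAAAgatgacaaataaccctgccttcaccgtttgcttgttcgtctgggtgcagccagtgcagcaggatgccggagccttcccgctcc
The Hist1h1c window held an H1 box and a CCAAT box. The Hist1h2ac window reaches the start of Hist1h2bc, which lies on the other strand at 23684199, so it is the spacer that the 2 genes share, and it held the octamer with CCAAT and TATAAA matches. The window of Hist3h2ba, which goes against the other members in CFAE+8 below, also held CCAAT and TATAAA matches.

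Libraries held 10958430 to 11913143 counts. Histone members took few of them, 8148 counts over all 8 libraries, of which Hist1h1c alone gave 3778 and Hist1h2bc 1697. No count was found for 9 members, 13 had 1 to 9 counts, and 45 had 10 or more. Of the 67 members 19 passed the filter on low counts and were tested, and 48 did not. A member passes this filter through whichever group holds the most counts, so the 19 do not stand for the 67. Members are also close copies: 34 share most of their 50-base windows with annotated transcripts of other genes, and 24 overlap the exons of another gene. The sources used here do not say how reads matching several copies were counted. Libraries of the kind named in the protocols do not record strand, so strand could not separate overlapping exons.

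Summed over the 67 members, histone RNA was several-fold lower in every cocktail than in fibroblast medium. The raw sums were 616 and 575 counts in CFAE+8, 473 and 444 in CFAE+8+MSC, 545 and 583 in CFAE+6, and 2436 and 2476 in MEF. Scaled to library size (CPM, on the TMM scale), they were 52.6 and 48.8 in CFAE+8, 41.0 and 40.2 in CFAE+8+MSC, 48.0 and 49.9 in CFAE+6, and 231 and 227 in MEF. Every cocktail library lay below both MEF libraries. The means were 4.52-fold lower in CFAE+8, 5.65-fold lower in CFAE+8+MSC and 4.68-fold lower with CFAE+6 than in MEF. These sums carry no test, since the fall of the group was already known when the members were chosen. In bulk RNA, fewer cells making histones and less histone RNA per cell cannot be told apart. The sums also count only histone RNA that entered the libraries, and whether these were selected for poly(A) tails is not stated.

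The classes differed in how far they were below MEF. The 6 H1 genes summed to 18.7 CPM in CFAE+8, 16.6 in CFAE+8+MSC and 14.6 with CFAE+6, against 132 in MEF, which is 7.08-fold, 7.97-fold and 9.03-fold lower. Nearly all of this was Hist1h1c: the other 5 H1 genes, summed apart after the data were seen, gave 1.06, 1.6 and 0.783 CPM in the same cocktails, against 5.87 in MEF, which is 5.52-fold, 3.68-fold and 7.5-fold lower. H2A sums were 2.85-fold lower in CFAE+8, 4.96-fold in CFAE+8+MSC and 2.4-fold with CFAE+6. For H2B these values were 2.93, 3.75 and 2.90, for H3 they were 3.47, 6.06 and 3.61, and for H4 they were 3.19, 3.74 and 2.4. Most of the H2B sum was Hist1h2bc, 42.5 of 57.8 CPM in MEF. In the same order of cocktails it gave 11.1 of 19.7, 10.1 of 15.4 and 12.9 of 19.9 CPM. H2B was not summed without Hist1h2bc, so its class values largely follow that gene. H1 thus gave a smaller share of histone RNA in the cocktails, 36.9% in CFAE+8, 40.9% in CFAE+8+MSC and 29.9% with CFAE+6, against 57.7% in MEF. That share also rests on Hist1h1c, since the other 5 H1 genes gave 3.22%, 6.24% and 2.23% of the sum without it in the cocktails, against 5.71% in MEF. The sum over all members turns in part on it too: the other 66 members were 3.11-fold, 4.02-fold and 2.93-fold lower in the same order of cocktails.

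**Figure D2:**
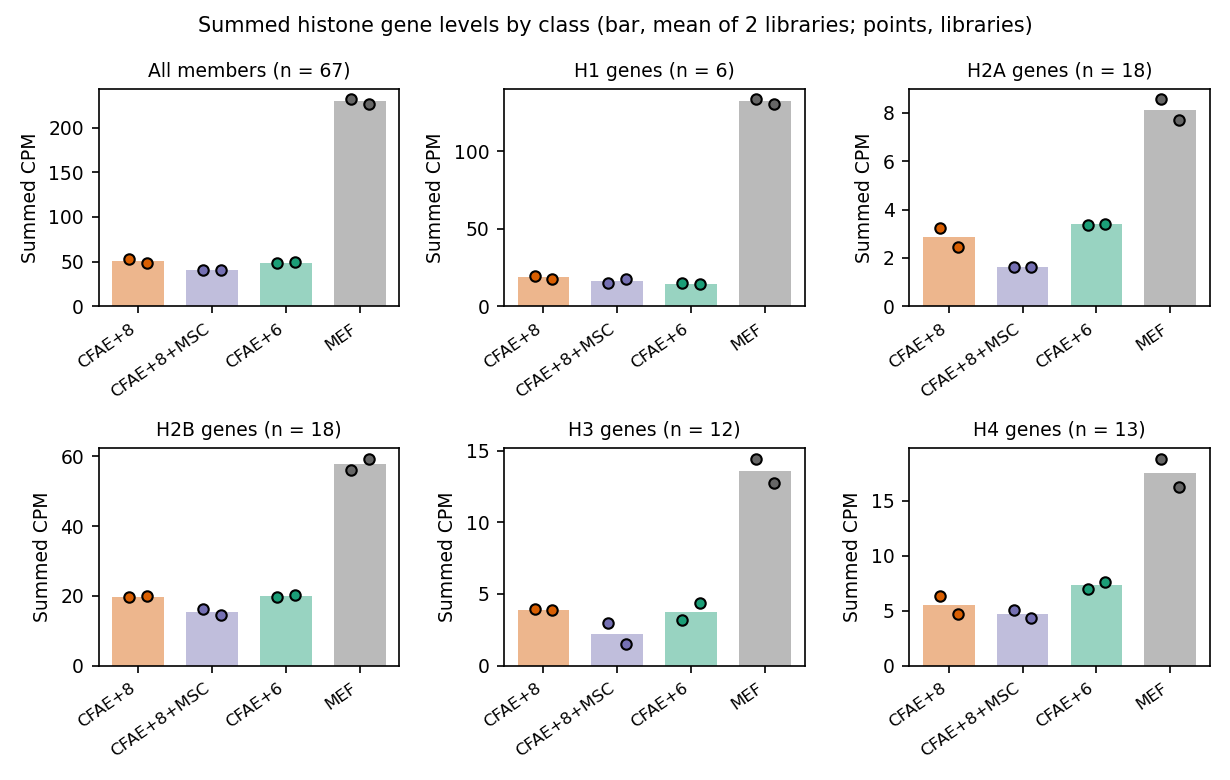
Summed level (CPM, TMM scale) of all 67 members and of each histone class, in the 4 media. Bars are means of 2 libraries and points are libraries; axes start at 0 and differ between panels. In every panel the points of the 3 cocktails lie below those of MEF, whose total was 231 and 227 CPM.

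Each of the 19 testable members was compared with MEF by edgeR's quasi-likelihood F test, with Benjamini-Hochberg adjustment over all 15470 genes tested and a threshold of 0.05. In CFAE+8, 15 were lower, 2 were higher and 2 did not pass, where 31.3% of all genes tested were lower and 30.8% higher (62% either way). In CFAE+8+MSC, 16 were lower, 0 higher and 3 did not pass, against 32.2% lower and 31.9% higher of all genes (64.1% either way). In CFAE+6, 15 were lower, 0 higher and 4 did not pass, against 31.5% lower and 31.6% higher of all genes (63.1% either way). The same 15 members were lower in all 3 cocktails. The 3 comparisons share the MEF libraries, so they do not repeat each other independently. Several members had enough counts for the filter only in MEF, among them Hist1h1d, Hist1h1e, Hist1h2ab, Hist1h2bg, Hist1h2bq, Hist1h3b, Hist1h3d, Hist1h4h and Hist1h4n. Such members could hardly be called higher, so the number lower beside the share of all genes is a description, not support for a fall. For 10 of the 15, all 3 calls held in each of the 14 other settings tried: Hist1h1c, Hist1h1d, Hist1h2ab, Hist1h2bc, Hist1h2be, Hist1h3b, Hist1h3d, Hist2h3c2, Hist1h4h and Hist1h4n. These settings reuse the same libraries, and several of the 10 passed the filter only through MEF. That the calls held is therefore also a description, not support for a fall.

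**Figure D3:**
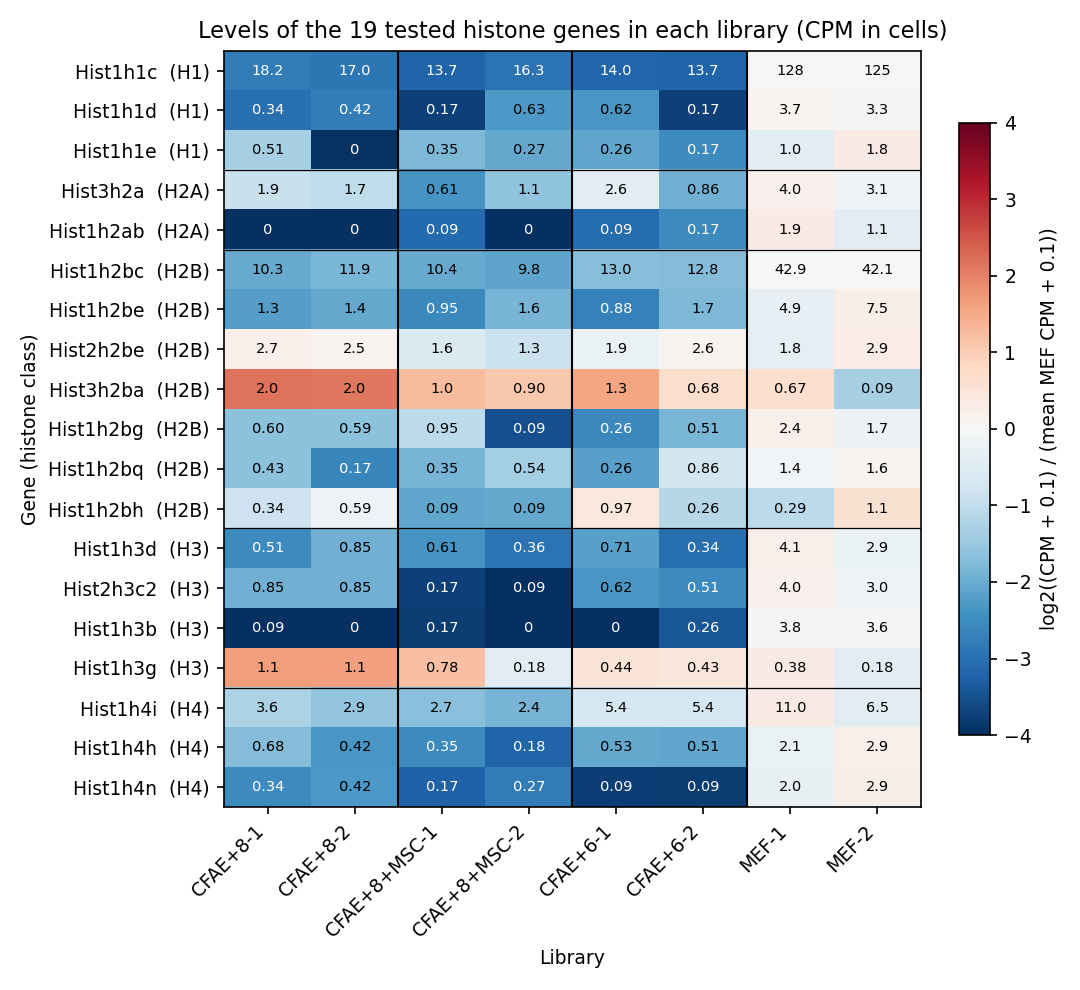
Levels of the 19 tested members in the 8 libraries, with CPM written in each cell and colour giving log2 of (CPM + 0.1) over (mean MEF CPM + 0.1), cut off at 4 in either direction. Blue cells are below the MEF mean and red cells above it. Most rows are blue in the 6 cocktail libraries, and Hist3h2ba and Hist1h3g are red in CFAE+8.

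Linker histone genes held both the most abundant member and some of the deepest falls. H1 binds the DNA between nucleosomes and compacts the fibre. Hist1h1c, which encodes the somatic subtype H1.2 (ENSMUSG00000036181, mm10 chromosome 13, 23738808 to 23740367, plus strand, no intron), had 213 and 201 counts in CFAE+8, 158 and 180 in CFAE+8+MSC, 159 and 160 in CFAE+6, and 1347 and 1360 in MEF. The cocktail libraries held a small part of the MEF counts and no groups overlapped with MEF. On the CPM scale its mean was 17.6 ± 0.802 in CFAE+8, 14.98 ± 1.84 in CFAE+8+MSC and 13.9 ± 0.227 with CFAE+6, against 126 ± 2.43 in MEF (SD, n = 2 each). The log2 fold change from edgeR was -2.84 ± 0.09 (SE, adjusted p = 9.19e-22), -3.08 ± 0.09 (adjusted p = 2.88e-22) and -3.19 ± 0.09 (adjusted p = 1.48e-22). Relative to gene length it stayed the most abundant H1 gene of the 3 tested, at 11.3, 9.60 and 8.88 CPM per kb in the cocktails and 81.0 in MEF.

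Hist1h1d, the gene of subtype H1.3, had 4 and 5 counts in CFAE+8, 2 and 7 in CFAE+8+MSC, 7 and 2 in CFAE+6, and 39 and 36 in MEF. It fell 9.14-fold, 8.79-fold and 8.95-fold (adjusted p = 8.62e-06, 1.12e-05 and 9.85e-06), with libraries of CFAE+8+MSC and CFAE+6 far apart: its log2 fold change was -2.46 and -4.33 without replicate 1 or 2 of CFAE+8+MSC and -4.35 and -2.50 without replicate 1 or 2 of CFAE+6. Hist1h1e, the gene of subtype H1.4, had 6 and 0 counts in CFAE+8, 4 and 3 in CFAE+8+MSC, 3 and 2 in CFAE+6, and 11 and 20 in MEF. All 6 cocktail libraries were below both MEF libraries (log2 fold change -2.50, -2.22 and -2.73, adjusted p = 0.00495, 0.00912 and 0.00319). These Hist1h1e calls were less firm. Without MEF replicate 2 the adjusted p was 0.104, 0.147 and 0.0783, without CFAE+8 replicate 2 it was 0.123 (log2 fold change -1.49), without CFAE+8+MSC replicate 2 it was 0.0734, and DESeq2 gave 0.0736, 0.11 and 0.0543. Exons of Hist1h1e overlap those of Hist1h2be and Gm11398 over 25.7% of their length, so its counts are uncertain.

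H2A genes were low throughout, and both tested ones fell. H2A pairs with H2B in the outer part of the nucleosome core. Hist3h2a had 22 and 20 counts in CFAE+8, 7 and 12 in CFAE+8+MSC, 29 and 10 in CFAE+6, and 42 and 34 in MEF. No group overlapped with MEF, and the fall was largest in CFAE+8+MSC (log2 fold change -2.08 ± 0.45, adjusted p = 0.000227). In CFAE+8 the change was -0.99 ± 0.39 (adjusted p = 0.0305) and in CFAE+6 -1.06 ± 0.40 (adjusted p = 0.0215), and both depended on the libraries used. The CFAE+8 value was 0.197 without MEF replicate 1, 0.0812 and 0.127 without CFAE+8 replicate 1 or 2, and 0.179 with DESeq2. The CFAE+6 value was 0.16 without MEF replicate 1, 0.36 without CFAE+6 replicate 2 (log2 fold change -0.47, and -2.04 without replicate 1) and 0.15 with DESeq2. Exons of Trim17 and Gm44313 overlap 33.0% of its length. Hist1h2ab had 0 and 0 counts in CFAE+8, 1 and 0 in CFAE+8+MSC, 1 and 2 in CFAE+6, and 20 and 12 in MEF. It was thus nearly undetected in all cocktails: at least 11.7-fold lower in CFAE+8, taking 3 counts in the whole group as the floor, and lower by a ratio of 33.7 (95% counting interval 5.64 to 1374) in CFAE+8+MSC and 11.5 (3.58 to 58.5) with CFAE+6. The adjusted p was 2.33e-05, 0.000101 and 0.000481, and the fitted log2 change in CFAE+8+MSC was -4.10 without its replicate 2, the library at 0. Exons of Gm44484 overlap 29.2% of it, and 42.0% of its 50-base windows are unique to it. Floors and counting intervals, here and below, cover counting error only.

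H2B was the class with the most tested members, 7, and the most mixed one. Hist1h2bc (ENSMUSG00000018102, chromosome 13, 23684199 to 23692908, plus strand, with an intron) had 121 and 140 counts in CFAE+8, 120 and 108 in CFAE+8+MSC, 148 and 149 in CFAE+6, and 451 and 460 in MEF. It was the second most abundant member, all cocktail libraries were well below both MEF libraries, and no stem-loop was found in its annotated transcript. Its log2 fold change was -1.94 ± 0.12 in CFAE+8, -2.08 ± 0.12 in CFAE+8+MSC and -1.72 ± 0.12 with CFAE+6 (adjusted p = 2.05e-14, 6.33e-15 and 1.91e-13). Hist1h2be had 15 and 17 counts in CFAE+8, 11 and 18 in CFAE+8+MSC, 10 and 20 in CFAE+6, and 52 and 82 in MEF. The groups again did not overlap with MEF, and it fell 4.59-fold, 4.87-fold and 4.80-fold (adjusted p = 4.14e-06, 2.97e-06 and 3.12e-06). Exons of Hist1h1e and Gm11398 overlap 11.2% of it.

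The lower-count H2B genes followed with less certainty. Hist1h2bg had 7 and 7 counts in CFAE+8, 11 and 1 in CFAE+8+MSC, 3 and 6 in CFAE+6, and 25 and 19 in MEF. Its libraries lay below both MEF libraries, with adjusted p = 0.00857, 0.00534 and 0.00155 and log2 fold changes of -1.79, -1.96 and -2.40. The CFAE+6 call held in all settings. The other 2 were lost without MEF replicate 1 (0.0997 and 0.0726), without either CFAE+8 replicate (0.0557 for each), without CFAE+8+MSC replicate 2 (0.15) and with DESeq2 (0.0987 and 0.0699), and the CFAE+8+MSC change was -4.50 without replicate 1 and -1.10 without replicate 2. Hist1h2bq had 5 and 2 counts in CFAE+8, 4 and 6 in CFAE+8+MSC, 3 and 10 in CFAE+6, and 15 and 18 in MEF. It was below MEF in all 6 cocktail libraries (log2 fold change -2.37, -1.80 and -1.45, adjusted p = 0.00281, 0.0126 and 0.0329), but only 2.68% of its windows are unique, the others being shared with genes such as Hist1h2br and Hist1h2bp. In CFAE+8 the adjusted p of Hist1h2bq was 0.0609 without CFAE+8 replicate 2 (and the change -3.18 without replicate 1). In CFAE+8+MSC it was 0.0838 without MEF replicate 2, 0.118 without CFAE+8+MSC replicate 1 and 0.125 with DESeq2. In CFAE+6 it was 0.088 and 0.154 without MEF replicate 1 or 2, 0.323 without CFAE+6 replicate 1 (change -0.84, and -2.54 without replicate 2) and 0.221 with DESeq2.

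The remaining H2B genes did not share the common fall. Hist2h2be, on chromosome 3 and with all of its windows unique, had 32 and 30 counts in CFAE+8, 18 and 14 in CFAE+8+MSC, 22 and 30 in CFAE+6, and 19 and 32 in MEF. CFAE+8 and CFAE+6 overlapped with MEF, and no comparison with MEF passed (log2 fold change 0.15 ± 0.35, -0.75 ± 0.39 and -0.07 ± 0.36, adjusted p = 0.728, 0.0969 and 0.872). Without MEF replicate 1 the CFAE+8+MSC value did pass (log2 fold change -1.04, adjusted p = 0.0467). Hist1h2bh had 4 and 7 counts in CFAE+8, 1 and 1 in CFAE+8+MSC, 11 and 3 in CFAE+6, and 3 and 12 in MEF. The MEF libraries lay far apart and overlapped with CFAE+8 and CFAE+6, and only the CFAE+8+MSC comparison passed (ratio of MEF to CFAE+8+MSC 7.91, counting interval 1.84 to 71.3, adjusted p = 0.0199). That call was lost without MEF replicate 2 (0.396, log2 fold change -1.69, against -3.63 without MEF replicate 1), without either CFAE+8+MSC replicate (0.0975 and 0.0897) and with DESeq2 (0.0997).

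Hist3h2ba (ENSMUSG00000056895, chromosome 11, 58948920 to 58949533, plus strand, no intron), an H2B gene of the small chromosome 11 cluster, went the other way. It had 24 and 23 counts in CFAE+8, 12 and 10 in CFAE+8+MSC, 15 and 8 in CFAE+6, and 7 and 1 in MEF. Every cocktail library was above both MEF libraries, and the rise passed the test in CFAE+8 (log2 fold change 2.42 ± 0.61, adjusted p = 0.00104) but not in CFAE+8+MSC (1.38 ± 0.69, adjusted p = 0.0841) or CFAE+6 (1.42 ± 0.69, adjusted p = 0.0739). Its size depends on the MEF libraries: without MEF replicate 1 the changes were 4.45, 3.42 and 3.45 and the last 2 passed (adjusted p = 0.0158 and 0.0143), without MEF replicate 2 the CFAE+8 change was 1.58, and without CFAE+6 replicate 2 the CFAE+6 change of 1.82 passed (adjusted p = 0.0461). Hist3h2a of the same chromosome, described above, fell.

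Of the H3 genes, which encode the histone that carries many of the known regulatory tail modifications, 3 fell and Hist1h3g did not. Hist1h3b (ENSMUSG00000069267, chromosome 13, 23752267 to 23752886, plus strand) had 1 and 0 counts in CFAE+8, 2 and 0 in CFAE+8+MSC, 0 and 3 in CFAE+6, and 40 and 39 in MEF. It was almost absent from every cocktail library while the MEF libraries were nearly equal. The ratio of MEF to the cocktail was 86.6 (95% counting interval 15.1 to 3464) in CFAE+8, 41.6 (11.2 to 349.9) in CFAE+8+MSC and 28.3 (9.33 to 140.1) with CFAE+6, with adjusted p = 1.7e-07, 4.2e-07 and 7.09e-07. The fitted log2 change rests on few counts and was -5.43 without CFAE+8 replicate 2, -4.40 without CFAE+8+MSC replicate 2 and -3.84 without CFAE+6 replicate 1. Hist1h3d had 6 and 10 counts in CFAE+8, 7 and 4 in CFAE+8+MSC, 8 and 4 in CFAE+6, and 43 and 32 in MEF. Its groups did not overlap with MEF (log2 fold change -2.36 ± 0.47, -2.85 ± 0.50 and -2.75 ± 0.49, the last -3.35 without CFAE+6 replicate 1, adjusted p = 6.74e-05, 1.37e-05 and 1.81e-05).

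Hist2h3c2, on chromosome 3, had 10 and 10 counts in CFAE+8, 2 and 1 in CFAE+8+MSC, 7 and 6 in CFAE+6, and 42 and 33 in MEF. It fell in all cocktails, 4.11-fold in CFAE+8 and 6.20-fold in CFAE+6 (adjusted p = 0.000153 and 1.51e-05), and by a ratio of 26.4 (counting interval 8.68 to 130.7) in CFAE+8+MSC (adjusted p = 1.3e-07). Only 36.5% of its windows are unique, the others being shared with Hist2h3c1 and the overlapping transcripts around it. Hist1h3g had 13 and 13 counts in CFAE+8, 9 and 2 in CFAE+8+MSC, 5 and 5 in CFAE+6, and 4 and 2 in MEF. It rose in CFAE+8 (log2 fold change 1.98 ± 0.73, adjusted p = 0.0194) and did not pass in CFAE+8+MSC (0.79 ± 0.86, adjusted p = 0.433) or CFAE+6 (0.63 ± 0.88, adjusted p = 0.547). Only CFAE+8, the group in which it was called higher, gave it enough counts for the filter, so this call is a description. The rise of Hist1h3g was lost without MEF replicate 2 (0.168), without CFAE+8 replicate 1 or 2 (0.0749 and 0.0713) and with DESeq2 (0.146), was 2.60 without MEF replicate 1, and 45.9% of the gene's windows are unique.

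All 3 tested H4 genes fell in all cocktails. H4 pairs with H3 at the centre of the nucleosome, and its many gene copies encode the same protein. Hist1h4i (ENSMUSG00000060639, chromosome 13, 22040636 to 22041362, minus strand) had 42 and 34 counts in CFAE+8, 31 and 26 in CFAE+8+MSC, 61 and 63 in CFAE+6, and 116 and 71 in MEF. All cocktail libraries were below MEF, with CFAE+6 closest to it (log2 fold change -1.44 ± 0.26, -1.79 ± 0.27 and -0.70 ± 0.24, adjusted p = 1.96e-05, 1.37e-06 and 0.0125). The CFAE+6 call rested on the higher MEF library: the adjusted p was 0.435 without MEF replicate 1, and 0.111 with DESeq2. Hist1h4h had 8 and 5 counts in CFAE+8, 4 and 2 in CFAE+8+MSC, 6 and 6 in CFAE+6, and 22 and 32 in MEF. Hist1h4n had 4 and 5 counts in CFAE+8, 2 and 3 in CFAE+8+MSC, 1 and 1 in CFAE+6, and 21 and 32 in MEF. No cocktail library of either gene reached a MEF library. Hist1h4h fell 4.55-fold, 9.49-fold and 4.83-fold (adjusted p = 0.000449, 2.26e-05 and 0.00034), and Hist1h4n fell 6.46-fold and 11.2-fold in CFAE+8 and CFAE+8+MSC and by a ratio of 28.5 (counting interval 7.5 to 241) in CFAE+6 (adjusted p = 0.000106, 1.65e-05 and 1.93e-06). Of the windows of Hist1h4n only 14.4% are unique.

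The 48 members below the filter summed to 5.32 CPM in CFAE+8, 4.98 in CFAE+8+MSC and 6.01 with CFAE+6, against 12.4 in MEF, which is 2.33-fold, 2.49-fold and 2.06-fold lower. Hist1h2ae, with the most counts of them, had 2 and 3 in CFAE+8, 4 and 3 in CFAE+8+MSC, 5 and 8 in CFAE+6, and 10 and 9 in MEF. Hist1h3c had 0 and 1 in CFAE+8, 4 and 1 in CFAE+8+MSC, 5 and 8 in CFAE+6, and 8 and 14 in MEF, so one CFAE+6 library equalled a MEF library. Hist1h2ac, with 3 and 3 in CFAE+8, 1 and 1 in CFAE+8+MSC, 0 and 8 in CFAE+6, and 5 and 15 in MEF, tied in total counts with Hist1h4d. Hist1h4d had 7 and 3 in CFAE+8, 3 and 3 in CFAE+8+MSC, 0 and 5 in CFAE+6, and 9 and 6 in MEF, and both genes overlapped with MEF in at least 1 cocktail. By class the untested members were 3 H1, 16 H2A, 11 H2B, 8 H3 and 10 H4 genes, with 54, 144, 107, 158 and 180 counts over the 8 libraries. In a fit without the filter, over 28024 genes, 39 of the 48 had counts and few of them passed. In CFAE+8, 4 were lower than MEF, where 17.5% of all genes in that fit were lower: Hist1h3c (1 count against 22), Hist1h4m (0 against 22), Hist1h2ad (1 against 21) and Hist1h4a (0 against 17), with adjusted p = 0.000553, 0.000141, 0.00669 and 0.00419 in edgeR. In CFAE+8+MSC, 4 were lower, where 18% of all genes were: Hist1h3c (5 against 22, adjusted p = 0.0342), Hist1h2ac (2 against 20, 0.00729), Hist1h2ad (2 against 21, 0.0206) and Hist1h4a (1 against 17, 0.0254). In CFAE+6, 1 was lower, Hist1h2ad (0 against 21, adjusted p = 0.000998), where 17.6% of all genes were. Hist1h4m, Hist1h2ad and Hist1h4a were named after their values were seen.

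Members were then grouped by their annotated 3′ ends, a feature the choice of members did not use. The 22 with 100 or more bases after the stem-loop summed to 31.2 CPM in CFAE+8, 24.5 in CFAE+8+MSC and 28.3 with CFAE+6, against 164 in MEF (5.25-fold, 6.68-fold and 5.79-fold lower). The 22 with fewer bases after it summed to 2.30, 1.93 and 3.16 CPM in the cocktails, against 15.2 in MEF (6.6-fold, 7.86-fold and 4.79-fold lower). The 23 without a match summed to 17.2, 14.1 and 17.5 CPM, against 50.2 in MEF (2.92-fold, 3.56-fold and 2.86-fold lower). All 3 sets were thus lower in every cocktail, but their order depends on Hist1h1c. The set without a match was mostly Hist1h2bc, at 11.1, 10.1 and 12.9 CPM in the same order of cocktails and 42.5 in MEF. That set was not summed without Hist1h2bc, so its folds largely follow that gene. Hist1h2bc was further below MEF than the whole set in every cocktail. The other members of the set together were thus less far below MEF than the folds given for it. The other 21 members with the long end summed to 13.6, 9.55 and 14.4 CPM in the cocktails, against 37.5 in MEF. That is 2.76-fold, 3.93-fold and 2.6-fold lower, beside 2.92-fold, 3.56-fold and 2.86-fold for the set without a match, which still held Hist1h2bc. Of the summed level without Hist1h1c in MEF, 36.5% came from these 21, 14.8% from the set with the short end and 48.8% from the set without a match. This sum was added after the data were seen. Of the tested members, 11 had the long end, 4 the short one and 4 no match. As a measure beside this, 13 other RNAs that end without a poly(A) tail gave 160 counts in all, 114 of them from Rn7sk. Their summed level was 1.79 and 1.53 CPM in CFAE+8, 1.04 and 3.71 in CFAE+8+MSC, 1.5 and 1.97 in CFAE+6, and 0.855 and 1.74 in MEF, and 6 of the 13, among them Rmrp and Rpph1, the RNAs of RNase MRP and RNase P, had no count in any library. Rn7sk had 4 and 31 counts in CFAE+8+MSC replicates 1 and 2, so the spread of that sum was mostly its own. It was the only one tested and did not pass against MEF (adjusted p = 0.559, 0.31 and 0.578 in edgeR).

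Between the cocktails, few members differed. Adding MSC2530818 to CFAE+8 lowered 1 of 19, Hist2h3c2 (3 against 20 counts, ratio of CFAE+8 to CFAE+8+MSC 6.41, counting interval 1.90 to 33.7, adjusted p = 0.0114), where 13.8% of all genes tested were lower and 15.6% higher. The call was lost without CFAE+8+MSC replicate 2 (0.1) and with DESeq2 (0.0618). Hist1h1c, with 338 counts in CFAE+8+MSC and 414 in CFAE+8, did not pass (log2 fold change -0.24 ± 0.12, adjusted p = 0.132). The summed level was 1.25-fold lower in CFAE+8+MSC than in CFAE+8.

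CFAE+6 differed from CFAE+8 in 2 of the 19, against 12.3% of all genes lower and 14.3% higher (26.6% either way). Hist1h1c was lower (319 against 414 counts, log2 fold change -0.35 ± 0.12, adjusted p = 0.0274) and Hist1h4i was higher (124 against 76 counts, 0.74 ± 0.27, adjusted p = 0.0462). The CFAE+6 and CFAE+8 libraries did not overlap for either gene, but neither call was firm. For Hist1h1c the adjusted p was 0.174 and 0.0618 without CFAE+8 replicate 1 or 2, 0.0793 and 0.113 without CFAE+6 replicate 1 or 2 and 0.116 with DESeq2, and for Hist1h4i it was 0.0697 and 0.252, 0.111 and 0.119, and 0.216 in the same order. Against CFAE+6, CFAE+8+MSC had Hist1h4i lower (57 against 124 counts, -1.10 ± 0.29, adjusted p = 0.0118, 0.0815 without CFAE+8+MSC replicate 2 and 0.0738 with DESeq2) and no other member past the threshold, where 4.27% of all genes were lower and 6.21% higher.

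The fall of the histone genes stood beside higher levels of most other genes of DNA replication and mitosis. This contrast was known when the members and lists were chosen, so the counts below describe it and are no support for it. Among all genes tested, 30.8%, 31.9% and 31.6% rose and 31.3%, 32.2% and 31.5% fell in CFAE+8, CFAE+8+MSC and CFAE+6. Of 40 genes for DNA replication and S phase, 36 rose and 0 fell in CFAE+8, 34 rose and 1 fell in CFAE+8+MSC, and 34 rose and 0 fell with CFAE+6, with a median log2 fold change of 0.94, 0.86 and 0.76 against medians of 0.01, 0.01 and 0.02 over all genes tested. Mcm3, part of the helicase that opens the DNA, was at 137 ± 2.49 CPM in CFAE+8, 120 ± 1.40 in CFAE+8+MSC and 114 ± 1.06 with CFAE+6, against 51.0 ± 3.69 in MEF (SD, n = 2 each). Pcna, the sliding clamp of the DNA polymerases, was at 126 ± 0.868 CPM in CFAE+8, against 49.997 ± 3.78 in MEF (log2 fold change 1.34 ± 0.07, adjusted p = 1.27e-16). Mcm6 and Uhrf1, which couples maintenance of DNA methylation to replication, rose in CFAE+8 by 1.21 ± 0.06 and 1.35 ± 0.07 on the log2 scale. Of 30 mitosis genes 26 rose and 0 fell in CFAE+8, 23 rose and 1 fell in CFAE+8+MSC, and 21 rose and 1 fell with CFAE+6 (median 0.74, 0.60 and 0.49). Top2a, which untangles DNA, was at 311 CPM in CFAE+8, 268 in CFAE+8+MSC and 239 with CFAE+6, against 135 in MEF. Ube2c and Ccna2 (cyclin A2) also rose in all 3. Mki67, a marker of cycling cells, was at 175 ± 4.29 CPM in CFAE+8 and 123 ± 4.68 in CFAE+8+MSC, against 103 ± 8.13 in MEF. In CFAE+6 it was at 98.1 ± 1.86 and did not pass (adjusted p = 0.313 in edgeR). Between cocktails, 24 of the 70 genes of both lists were lower and 1 higher in CFAE+8+MSC than in CFAE+8. Of all genes tested, 13.8% were lower and 15.6% higher there. In CFAE+6, 28 were lower and 2 higher than in CFAE+8, against 12.3% and 14.3% of all genes. CFAE+8+MSC had 0 lower and 5 higher than CFAE+6, against 4.27% and 6.21%.

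The histone counts can also be set against those of the replication genes in the same library, a ratio that must move where one falls and the other rises. For every 1000 counts of the replication genes there were 20.7 and 19.3 histone counts in CFAE+8, 17.5 and 17.4 in CFAE+8+MSC, 21.6 and 22.3 in CFAE+6, and 184 and 177 in MEF. The 6 cocktail libraries lay close together and far below both MEF libraries.

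**Figure D4:**
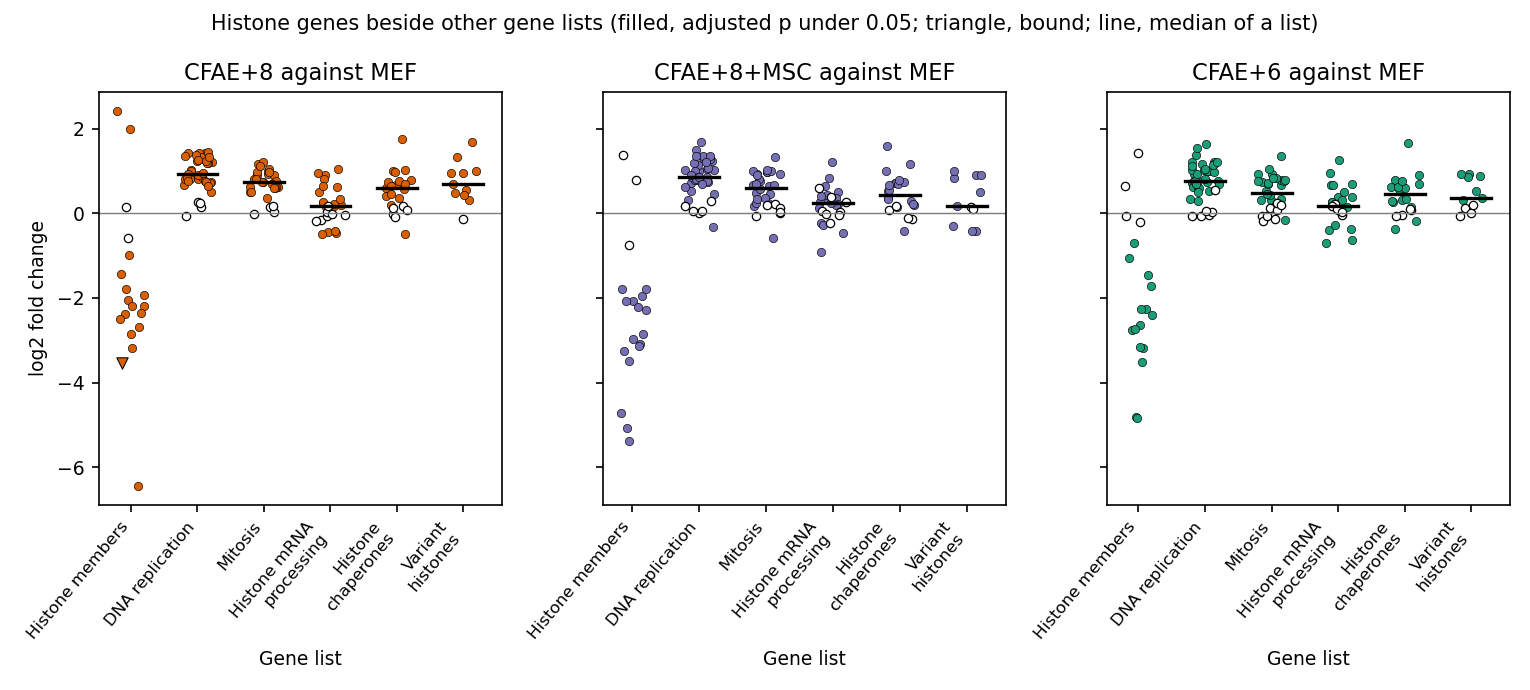
Log2 fold change against MEF of the 19 tested histone members and of the tested genes of 5 other lists, in each cocktail. Filled points passed the threshold, open points did not, the triangle is the bound for Hist1h2ab with 0 counts in CFAE+8, lines are list medians, and histone values under -4 rest on 1 to 3 counts in the cocktail. Most histone points lie below 0, while 36, 34 and 34 of the 40 replication genes rose. Members and lists were chosen with this contrast known.

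Most genes that make and process histone mRNA did not move with the histones, though some fell. Of 25 tested, 14 rose and 4 fell in CFAE+8, 13 rose and 4 fell in CFAE+8+MSC, and 14 rose and 5 fell with CFAE+6 (median 0.16, 0.25 and 0.18). Over all genes tested, 30.8%, 31.9% and 31.6% rose and 31.3%, 32.2% and 31.5% fell in the same order of cocktails. Slbp, the stem-loop binding protein, was at 58.7 ± 3.22 CPM in CFAE+8, 44.8 ± 0.871 in CFAE+8+MSC and 50.8 ± 1.36 with CFAE+6, against 31.6 ± 1.22 in MEF, and rose in all 3 (log2 fold change 0.89, 0.50 and 0.68). Npat, the histone gene activator, was at 33.6 ± 0.213, 39.4 ± 3.55 and 36.9 ± 2.73 CPM, against 38.1 ± 0.0651 in MEF, and did not pass in any (adjusted p = 0.097, 0.65 and 0.705). Casp8ap2, a histone locus body protein, rose by 0.81, 0.83 and 0.65 on the log2 scale, and Eri1, an exonuclease that trims histone mRNA ends, by 0.50, 0.37 and 0.39. Of the U7 snRNP, Lsm11 did not pass in any (-0.15, 0.26 and 0.07), nor did Zfp473, its partner (-0.08, 0.60 and 0.21). The cap-complex protein Srrt and the Sm protein Snrpg rose in all 3, Srrt by 0.61, 0.44 and 0.38 and Snrpg by 1.05, 1.20 and 1.25. The genes that fell in CFAE+8 were chosen for naming after their values were seen. They were Lsm10 (-0.48), like Lsm11 a U7 snRNP protein, Coil (-0.44), Cpsf2 (-0.42), the histone mRNA cleavage factor subunit, and Ctif (-0.49), a translation factor.

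Histone genes outside the replication-dependent set and the chaperones that carry histones also differed from the members. Some variant histones, such as H3.3, can be placed into chromatin outside DNA replication. Of 11 tested, 10 rose and 0 fell in CFAE+8, 6 rose and 3 fell in CFAE+8+MSC, and 7 rose and 0 fell with CFAE+6 (median 0.70, 0.17 and 0.35). Beside these and the chaperone counts below, 30.8%, 31.9% and 31.6% of all genes tested rose in the same order of cocktails. The shares that fell were 31.3%, 32.2% and 31.5%, and the 3 variants that fell in CFAE+8+MSC are near that share. H2afz, the H2A.Z gene, was at 176 ± 3.83 CPM in CFAE+8, 158 ± 8.92 in CFAE+8+MSC and 168 ± 14.1 with CFAE+6, against 88.4 ± 2.37 in MEF. H3f3b, an H3.3 gene, was at 578 ± 9.46, 400.0 ± 4.55 and 443 ± 10.8 CPM, against 356 ± 10.9 in MEF, and rose in all 3 (log2 fold change 0.70, 0.17 and 0.31). The macroH2A gene H2afy and the centromeric H3 gene Cenpa rose too, by 0.95 and 1.32 in CFAE+8. Of 22 chaperone genes, 16 rose and 1 fell in CFAE+8, 17 rose and 1 fell in CFAE+8+MSC, and 16 rose and 2 fell with CFAE+6 (median 0.58, 0.43 and 0.45). Nasp, which binds H1 and H3-H4 before assembly, was at 124 ± 5.32 CPM in CFAE+8, 111 ± 5.04 in CFAE+8+MSC and 116 ± 4.80 with CFAE+6, against 36.8 ± 3.0 in MEF (log2 fold change 1.75, 1.59 and 1.65). Ssrp1, Nap1l4 and Mcm2, which is also a replication gene of the list above, rose by 0.74, 0.76 and 1.02 in CFAE+8.

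Marker genes of several cell types also differed between the media. For the counts below, 31.3%, 32.2% and 31.5% of all genes tested were lower than MEF in CFAE+8, CFAE+8+MSC and CFAE+6. The shares higher were 30.8%, 31.9% and 31.6%. The sum of 11 macrophage markers was 43.4 and 44.7 CPM in CFAE+8, 24.1 and 26.1 in CFAE+8+MSC and 26.3 and 25.0 with CFAE+6, against 198 and 199.5 in MEF, with 10, 10 and 11 of the 11 lower. Lyz2, Csf1r, Tyrobp and C1qa were above 0 in all 8 libraries, while Ptprc was at 0 in CFAE+8+MSC replicate 2 and C1qb in CFAE+6 replicate 2. The sum of 11 fibroblast markers, among them Col1a1 and Col1a2, was 13422 to 14763 CPM in the cocktails and 31080 and 31841 in MEF, with 7, 6 and 7 of the 11 lower and 4 higher in each cocktail, and all 11 were above 0 in every library. The sum of 5 endothelial markers was 24.0 to 60.0 CPM in the cocktails and 16.9 and 17.2 in MEF, nearly all from Kdr, with Tie1 at 0 in all but 1 library. Sums of 6 epithelial markers were 11.5 and 10.8 CPM in CFAE+8, 44.9 and 40.9 in CFAE+8+MSC and 37.5 and 37.1 with CFAE+6, against 19.3 and 22.7 in MEF, with 1, 3 and 4 of the 6 higher and 2, 1 and 0 lower. Sums of 6 pluripotency markers were 3.22 to 8.82 CPM in the cocktails and 0.57 and 1.01 in MEF, those of the cocktails nearly all from Sall4, with Pou5f1 and Zfp42 at 0 in all libraries. The part of these shifts in the histone result was not tested.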

How the data were processed

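RNA had been isolated with an EasyPure kit and sequenced from NEBNext Ultra RNA libraries, per the labels' protocols. Libraries of this kind do not record strand, but the strand setting used in counting is not given. The authors deposited raw counts per gene; the submitters' processing notes name featureCounts, Subread, DESeq2 and mm10. The sources used here name no aligner, annotation release or rule for reads with several matches. Stem-loops, exon overlaps and 50-base windows came from GENCODE M21, where all 67 members had the same coordinates.

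Groups came from the labels. The low-count filter of edgeR 4.0.16 (filterByExpr, R 4.3.3) left 15470 of the 28024 genes with any count, 13589 of them protein coding. After TMM scaling, 1 quasi-likelihood model with a mean per group was fitted to all 8 libraries (4 residual degrees of freedom), and calls were made at 0.05 after Benjamini-Hochberg adjustment over these genes. Folds against a group without counts were bounded by a floor of 3 counts in that group; where it had 1 to 3, an exact 95% interval of the ratio is given. Scripts were tested on simulated data. Alternatives were DESeq2 1.42.0, other scalings, no filter, a replicate block and leaving out each library.

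Members and lists were chosen with earlier results of these data known. Every tested member is named, with the 3 untested ones of most counts (4 with a tie), up to 4 genes per list with the smallest adjusted p in CFAE+8 against MEF, and 6 histone mRNA pathway genes. Promoters were not used for Hist1h2bc, Hist2h2be, Hist1h3a, Hist1h3f and Hist2h4.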

Additional observations from a re-analysis of the deposited data

How the results depend on the processing

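Of the gene results, 763 kept direction and side of the threshold, 55 lost the call, 4 gained it and 7 changed sign. The 7 were all without a call and all from leaving out 1 library, over which Hist2h2be ranged from -0.15 to 0.54 in CFAE+8 and from -0.37 to 0.32 in CFAE+6 against MEF (0.12 without CFAE+6 replicate 1), Hist1h2bh from -1.23 to 0.71 and from -1.43 to 1.09 (0.48 without CFAE+6 replicate 2), and Hist1h3g from -0.63 to 1.49 in CFAE+8+MSC. Leaving out 1 library gave 14 to 19, 13 to 20 and 13 to 17 members lower than MEF in CFAE+8, CFAE+8+MSC and CFAE+6 (15, 16 and 15 with all libraries; 19, 20 and 16 with no filter; 15, 12 and 12 with DESeq2), and 1 to 2, 0 to 1 and 0 to 2 higher. It gave 0 to 1 member lower in each comparison between cocktails and 0 to 2 higher in CFAE+6 against CFAE+8. Cell cycle genes higher were then 1 to 2 in CFAE+8+MSC and in CFAE+6 against CFAE+8 and 2 to 5 in CFAE+8+MSC against CFAE+6, and all genes called in these 3 comparisons were 3181 to 4747, 2720 to 4154 and 947 to 1531. DESeq2 gave 1 member higher in CFAE+8 against MEF, 0 members lower in each of the 3 comparisons between cocktails and 0 higher in CFAE+6 against CFAE+8, with 2831, 2525 and 885 genes called in all (4538, 4116 and 1621 in edgeR) and 1 and 3 cell cycle genes higher in CFAE+6 against CFAE+8 and in CFAE+8+MSC against CFAE+6. Fitting only the 2 groups compared gave 0 members lower in CFAE+8+MSC and in CFAE+6 against CFAE+8, and 2 and 3 cell cycle genes higher in CFAE+8+MSC against CFAE+8 and CFAE+6. DESeq2 size factors gave 2 cell cycle genes higher in CFAE+8+MSC against CFAE+8, and no filter gave 2 members higher in CFAE+6 against CFAE+8. The cause of these shifts was not tested.

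On the log2 scale the summed level against MEF was -2.18, -2.50 and -2.23 in CFAE+8, CFAE+8+MSC and CFAE+6. It was -2.003, -2.37 and -2.07 with plain library totals, -1.64, -2.01 and -1.55 without Hist1h1c, -2.53 in CFAE+8+MSC with the excluded pseudogenes, and -2.28 in CFAE+6 without overlapping members. Without Hist1h1c it was also 0.087 in CFAE+6 against CFAE+8 (-0.05 with it) and -0.46 in CFAE+8+MSC against CFAE+6 (-0.27 with it). Leaving out 1 library gave -2.23 to -2.12, -2.51 to -2.48 and -2.25 to -2.20 against MEF.

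Same-numbered libraries did not deviate together (correlations of deviations from -0.02 to 0.05), so no pairing by number was seen. With so few libraries per group this cannot show that none existed, and the labels do not state a pairing. With the replicate number as a block, 15, 16 and 15 members were lower than MEF and 2 cell cycle genes were higher in CFAE+8+MSC against CFAE+8, where the fit without it had 1. A planned check of uniqueness in the whole genome was not run, and uniqueness among annotated transcripts was used in its place, chosen after seeing the data. Low counts limit single members: 48 fell below the filter, and without it 4, 4 and 1 of them were lower than MEF in CFAE+8, CFAE+8+MSC and CFAE+6.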

Other observations

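Of the 3 excluded pseudogenes, Hist3h2bb-ps and Hist1h2aj had 4 and 2 counts over the 8 libraries, and the other, Hist1h2al, an H2A-like copy on chromosome 13, had 47 and 35 counts in CFAE+8, 36 and 30 in CFAE+8+MSC, 34 and 57 in CFAE+6, and 250 and 228 in MEF, which is more than most members. Of the 9 members without counts, several on chromosome 3 (among them Hist2h2aa1, Hist2h2bb and Hist2h3b) lie wholly within the exons of other annotated genes. One of these, Gm20632, had 43 counts in CFAE+8, 54 in CFAE+8+MSC and 63 with CFAE+6, against 185 in MEF. Another, Gm42743, had 27, 22 and 20 counts in the same cocktails, against 158 in MEF. For Gm20633 the counts were 12, 19 and 14, against 36 in MEF, and for Gm20628 they were 1, 1 and 1, against 16. A count of 0 for such a member therefore does not show that its sequence was absent from the libraries. These genes were chosen after their values were seen.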
